A study of Drosophila melanogaster with 4 samples.

Results

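The mitochondrial ribosomal protein genes were taken as all genes of the count table whose FlyBase symbol starts with *mRpL* (large subunit) or *mRpS* (small subunit), and 71 of the 13608 genes met this rule. Of these, 46 are large-subunit and 25 small-subunit genes. All 4 libraries were 3′-seq libraries (QuantSeq REV) from heads of untreated adult wild-type *Drosophila melanogaster* kept at 25C, so the study of this series holds 1 condition and no contrast between genotypes or treatments. The study's methods describe flies of both sexes and name *w1118* as wild type, whereas the series record speaks of independent wild-type lines, so the number of lines behind the 4 replicates is open. Heads were powdered and UV-cross-linked, and RNA was recovered from the lysate by proteinase K digestion. In 3′-seq, copying starts at the poly(A) tail and each transcript yields reads at its end. Read numbers therefore do not scale with transcript length, and the levels of different genes were set side by side. Mapping without introns and overlapping 3′ ends, both described below, may affect genes unequally, and their part in the levels was not tested.

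Mitochondria carry their own genome and translate its few messenger RNAs, which encode core subunits of the respiratory chain and of ATP synthase, on a ribosome of their own. The RNAs of this mitoribosome are encoded in the mitochondrial genome, but all of its proteins are encoded by nuclear genes in animals, made in the cytosol and imported. Some of these proteins descend from bacterial ribosomal proteins, and others were added during the evolution of mitochondria. The small subunit binds the messenger RNA and decodes it, and the large subunit forms the peptide bond. Neurons and photoreceptors, which fill much of the fly head, depend on mitochondrial ATP, and a mutation in *tko*, the gene of the mitochondrial protein S12, is a classic cause of seizure-like behaviour in *Drosophila*. The genes *tko* and *bonsai* (S15) lack the symbol prefix and are described apart from the 71. The genes *mRpL53* and *mRpS5* were not analysed here.

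The libraries held 8753359 to 13434565 counts on genes, and levels are given as counts per 1000000 counts of a library (CPM). Neuronal markers (10 genes, summed) reached 3088 to 4804 CPM and photoreceptor markers (13 genes) 30247 to 41479 CPM, so both kinds of head cell were represented. In whole heads, more cells of a type and more RNA per cell cannot be told apart. Replicate 1 stood apart in markers of midgut, accessory gland and testis, but not in the sums of ovary and flight muscle markers. Its 16 midgut genes summed to 990 CPM, against 134 to 196 CPM in the other replicates. Its 12 accessory gland genes summed to 829 CPM, against 10.7 to 205 CPM. Its 12 testis genes summed to 297 CPM, against 9.08 to 51.6 CPM. Its ovary sum lay within the 7.21 to 25.6 CPM of the others. Its flight muscle sum, 6256 CPM, lay within their 4345 to 9475 CPM. Among flight muscle genes, *Act88F* was highest in replicate 1, at 283 CPM against 6.74 to 38.3 CPM. *Mlc2* was highest in replicate 2, at 7667 CPM. Replicate 4 stood apart in the inner photoreceptor opsins *Rh4*, *Rh3* and *Rh5*. It had 1.12 CPM of *Rh4*, against 313 to 378 CPM in the others. *Rh3* was at 54.0 CPM, against 272 to 712 CPM, and *Rh5* at 61.5 CPM, against 319 to 625 CPM. *Rh6*, another inner photoreceptor opsin, was not low there, at 163, 93.0, 37.0 and 209 CPM in replicates 1 to 4. The main results on the mitochondrial ribosomal protein genes are therefore also given without each of these replicates, and the part of these markers in them was not tested.

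All 71 mitochondrial ribosomal protein genes of the table were detected in the heads. In each replicate all 71 genes passed a minimum of 10 counts, against 57.0% of all genes of the table. Among the 5071 genes with a mean level inside the range of the 71, 99.4% passed the same minimum, so the full detection is what genes of this level generally showed. None of the 71 had 0 counts in a replicate, and 0.316% of the genes in that level range did. The lowest single value was 59 counts, for *mRpL10* in replicate 3, and 67 of the 71 genes never fell under 100 counts.

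Summed over the 71 genes, the mitochondrial ribosomal proteins made up 3477, 3974, 3591 and 3366 CPM in replicates 1 to 4. This is 0.337% to 0.397% of the counts, with a mean of 3602 ± 265 CPM (SD, n = 4). The 95% Wilson intervals, which cover counting error only, reached from 3446 to 3509 for replicate 1 and from 3937 to 4011 for replicate 2 and did not overlap. Without replicate 1 the mean sum was 3643 CPM and the median level 39.1 CPM, and without replicate 4 they were 3681 and 40.1 CPM. Scaled by TMM, a method of edgeR that corrects for the share taken by a few highly expressed genes, the sums were 3019, 4214, 4220 and 3110 CPM in replicates 1 to 4. Replicates 2 and 3 were then higher than replicates 1 and 4, whereas by library total replicate 2 alone stood above the others, so the order of the replicates depended on the scaling and the mean, 3641 CPM after TMM, did not.

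**Figure D1:**
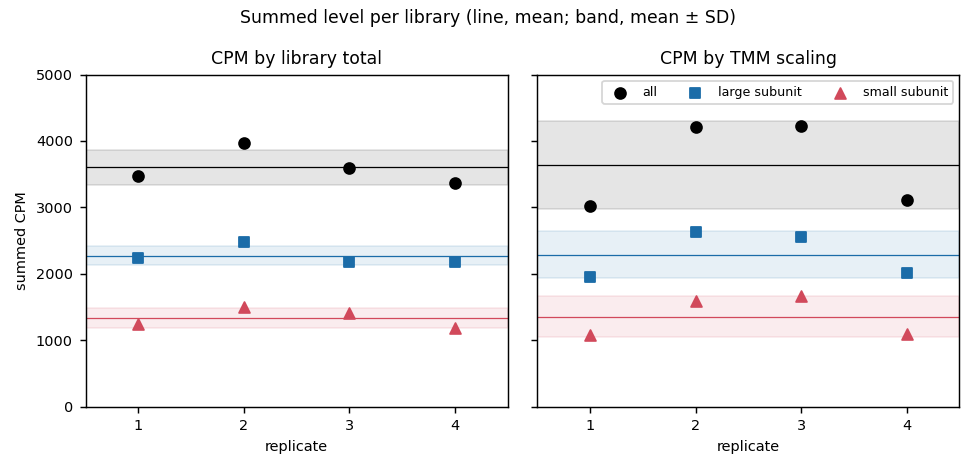
Summed level of the mitochondrial ribosomal protein genes in each replicate (horizontal axis), as summed CPM by library total (left) or after TMM scaling (right), for all 71 genes, the 46 large-subunit and the 25 small-subunit genes. Lines give the mean and bands the mean ± SD over 4 replicates; the sum of all genes spans 3366 to 3974 CPM by library total and 3019 to 4220 CPM after TMM.

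The levels of the single genes lay close together. Their means reached from 12.8 CPM (*mRpL35*) to 305 CPM (*mRpS9*), with a median of 39.2 CPM, and the genes at the upper and lower quartile, 63.5 and 30.5 CPM, differed 2.08-fold. In 54 of the 71 genes (76.1%) the mean was within 2 times of the median, 11 were above and 6 below. Without *mRpS9*, the next highest gene was 10.6-fold above the lowest, and *mRpS9* alone was 23.9-fold above it. The median level per replicate was 41.1, 43.0, 36.3 and 38.1 CPM (39.6 ± 2.98 CPM, SD, n = 4). The median over the 7754 genes of the table that passed the count minimum was 25.0 ± 3.55 CPM. In the ranking of all genes by mean level, the median member stood at place 2952, *mRpS9* at 509 and *mRpL35* at 5579.

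**Figure D2:**
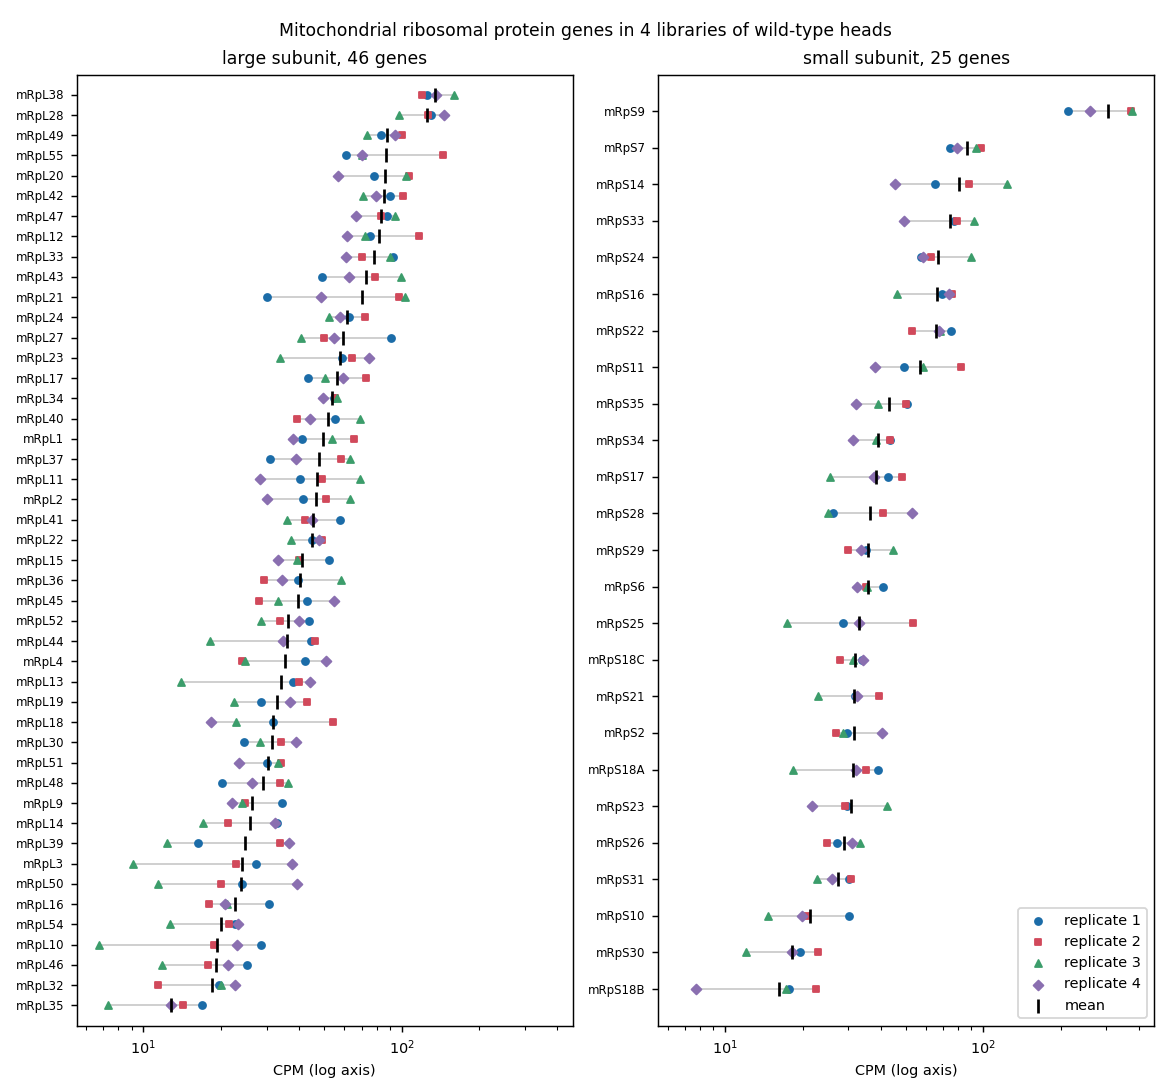
Level in CPM (log axis, by library total) of each of the 46 large-subunit genes (left) and 25 small-subunit genes (right), ordered by mean; symbols are the 4 replicates, the black tick the mean and the grey line the range. *mRpS9*, between 213 and 376 CPM, lies apart from all other genes, and the rest form a continuous series with overlapping ranges.

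*mRpS9* (FBgn0037529) encodes S9 of the small subunit, a conserved protein of the subunit's head domain whose bacterial counterpart reaches towards the transfer RNA in the P site. The gene lies on chromosome 3R at positions 7889277 to 7902667 of dm6, on the minus strand, with 7 exons and the gene *wtrw* opposite to it. It was measured at 213, 374, 376 and 258 CPM in replicates 1 to 4 (305 ± 82.7 CPM, SD, n = 4). It ranked first among the 71 genes in every replicate, and by library total its lowest replicate was above every replicate of the other 70. After TMM this held for 69 of them, since *mRpS9* at 185 CPM in replicate 1 then lay just below *mRpL38* at 188 CPM in replicate 3. It held 8.42 ± 1.92% of all mitochondrial ribosomal protein counts.

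*mRpL38*, a mitochondria-specific protein of the central protuberance with a fold related to phosphatidylethanolamine-binding proteins, followed at 125, 120, 160 and 136 CPM in replicates 1 to 4. Next came *mRpL28*, a conserved large-subunit protein, at 130, 126, 97.4 and 147 CPM. These 2 genes and *mRpS9* were the 3 that were among the 10 highest in every replicate. *mRpL38* and *mRpL28* overlapped each other, but *mRpL38* had no overlap with 66 of the 69 genes below it by library total and with 60 after TMM. Of the 70 pairs of neighbours in the order of means, only *mRpS9* and *mRpL38* had replicate ranges that did not overlap, and after TMM none did, so the exact order of the genes is not resolved by 4 replicates.

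The other 7 of the 10 highest genes had nearly equal means between 81.5 and 87.7 CPM. They were *mRpL49* and *mRpL42* of the mitochondria-specific proteins, and *mRpL55* (the counterpart of bacterial L31), *mRpL20*, *mRpS7*, *mRpL47* (of bacterial L29) and *mRpL12*. In bacteria L20 is needed early in the assembly of the large subunit and S7 starts the assembly of the head of the small subunit. L12 forms the mobile stalk that recruits elongation factors and is the ribosomal protein present in several copies per ribosome. *mRpL12* was measured at 75.3, 117, 72.3 and 61.2 CPM, *mRpL20* at 78.0, 107, 104 and 56.8 CPM, and *mRpS7* at 74.4, 97.6, 93.7 and 78.7 CPM in replicates 1 to 4. Replicate 2 was the highest of the 4 for each of these 3 genes by library total, and after TMM it was so for *mRpL12* only. Together the 10 highest genes held 32.2% of the counts of the 71.

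At the lower end, *mRpL35* (FBgn0038923), which encodes a conserved large-subunit protein and lies on chromosome 3R at 22023527 to 22024341 (plus strand, 2 exons), was measured at 16.9, 14.2, 7.31 and 12.7 CPM in replicates 1 to 4. It took place 70 of 71 in every replicate, and each of its values lay below every value of 59 other genes by library total and of 61 after TMM. *mRpS18B* followed at 17.6, 22.4, 17.1 and 7.68 CPM, with replicate 4 low. *mRpS30* was at 19.6, 22.8, 12.0 and 18.2 CPM, and *mRpL46*, a central protuberance protein with a Nudix fold, at 25.2, 17.8, 11.8 and 21.3 CPM. *mRpL32* was at 19.7, 11.4, 19.99 and 22.7 CPM, with replicate 2 low. Its protein is known in yeast and mammals to be matured by the m-AAA protease of the inner membrane, and *Afg3l2*, a subunit of that protease in flies, was at 114 CPM. *mRpL35* and *mRpL46* were the 2 genes among the 10 lowest in each of the 4 replicates.

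Chosen genes were grouped by the place of the protein in the ribosome, as known from bacterial and mammalian structures. The groups need not hold every protein of a place. No group was uniformly high or low. The 5 genes grouped as head of the small subunit (*mRpS7*, *mRpS9*, *mRpS10*, *mRpS14*, *mRpS29*) held both *mRpS9* and *mRpS10*, at 21.3 CPM, a 14.3-fold range. The 7 exit tunnel genes (*mRpL4*, *mRpL17*, *mRpL22*, *mRpL23*, *mRpL24*, *mRpL45*, *mRpL47*) lay within 2.34-fold of each other, from 35.4 CPM (*mRpL4*) to 83.0 CPM (*mRpL47*). *MRPL45* is known in mammals to hold the ribosome at the inner membrane, where the products of mitochondrial translation are inserted.

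The 4 genes of the peptidyl transferase core, where the peptide bond forms, had a median of 35.3 CPM, against 56.5 CPM for the exit tunnel genes. *mRpL27* was highest with a mean of 59.1 CPM, followed by *mRpL2* with 46.4 CPM, *mRpL3* with 24.2 CPM and *mRpL16* with 22.6 CPM. In the stalk, *mRpL12* averaged 81.5 CPM, *mRpL11* 46.8 CPM and *mRpL10*, whose protein anchors L12 to the ribosome, 19.2 CPM, a 4.24-fold range. The replicates of *mRpL12* (61.2 to 117 CPM) did not overlap those of *mRpL10* (6.74 to 28.5 CPM). In the central protuberance *mRpL38* stood 7.10-fold above *mRpL46*, with *mRpL40* at 52.0 CPM, *mRpL18* at 31.8 CPM and *mRpL48* at 29.2 CPM between them.

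The large-subunit genes summed to 2269 ± 144 CPM and the small-subunit genes to 1333 ± 146 CPM (SD, n = 4). Within a library, the large-subunit sum was 1.81, 1.66, 1.54 and 1.84 times the small-subunit sum in replicates 1 to 4 (1.71 ± 0.142), with a mean of 1.68 without replicate 1 and 1.67 without replicate 4. The mean per gene was 0.931 ± 0.0772 times that of the small subunit, and the median gene 1.10 ± 0.0586 times. The value below 1 for the mean per gene rested on *mRpS9*. Without that gene the mean per large-subunit gene was 1.15 ± 0.0561 times that of the small subunit, and the ratio of the sums was 2.21 ± 0.108.

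The 43 genes classed as having a bacterial counterpart had a median of 42.7 ± 4.56 CPM, and the 27 mitochondria-specific genes 35.0 ± 0.730 CPM (SD over 4 replicates). After TMM the medians were 43.0 ± 7.62 and 35.3 ± 5.28 CPM, so the small SD of the mitochondria-specific genes held by library total only. The ratio of the medians within a library was 1.18, 1.44, 1.09 and 1.17 in replicates 1 to 4, above 1 in each but by 1.09-fold only in replicate 3. Of the S18 family, described next, *mRpS18C* was counted as conserved, *mRpS18B* as mitochondria-specific and *mRpS18A* in neither class. With all 3 counted as conserved, a choice made after the data were seen, the medians were 41.7 ± 5.30 CPM for 45 and 36.9 ± 1.47 CPM for 26 genes, and the ratio fell to 1.03 in replicate 3. Within the large subunit the medians were 43.2 ± 4.42 CPM for 30 conserved and 38.6 ± 3.73 CPM for 16 mitochondria-specific genes, and within the small subunit 41.7 ± 5.43 CPM for 13 and 32.7 ± 3.91 CPM for 11 genes. Both classes spanned most of the range, with *mRpS9* and *mRpL35* among the conserved and *mRpL38* and *mRpL46* among the mitochondria-specific genes.

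Bacteria have a single S18 protein, whereas animals have 3 mitochondrial versions that in mammals occupy different places in the ribosome. *mRpS18A* was measured at 38.9, 35.2, 18.3 and 32.2 CPM, *mRpS18B* at 17.6, 22.4, 17.1 and 7.68 CPM and *mRpS18C* at 33.9, 27.8, 31.2 and 34.3 CPM in replicates 1 to 4. The values of *mRpS18C* were all above those of *mRpS18B*, and *mRpS18A* overlapped both. In human ribosomes the counterparts of *mRpS18A* and *mRpS30* sit in the large subunit despite their names. Counting both there moved the ratio of the sums to 1.82.

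The genes differed in how well the replicates agreed, measured by the coefficient of variation (CV, the SD over the mean). The median CV of the 71 genes was 0.255, 21 genes were under 0.2 and 10 over 0.4. After TMM the median was again 0.255, 21 genes were under 0.2 and 16 over 0.4. Which genes were steadiest depended on the scaling. By library total the lowest CV was that of *mRpL34*, at 54.6, 55.3, 56.2 and 49.4 CPM in replicates 1 to 4, with a CV of 0.056. *mRpS18C* and *mRpS6* followed with CVs of 0.094 and 0.098. *mRpL22*, which lines the exit tunnel, and *mRpS7* completed the 5 steadiest, with CVs of 0.12 and 0.131. After TMM the CV of *mRpL34* was 0.177 and that of *mRpS7* 0.255, equal to the median of the 71 genes, and *mRpL52* (0.052), *mRpL41* (0.084) and *mRpL28* (0.098) were lowest. *mRpS18C*, at 0.107, and *mRpL22*, at 0.123, were among the 5 lowest under both scalings.

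The most variable gene under both scalings was *mRpL21*, at 30.2, 97.8, 104 and 48.9 CPM in replicates 1 to 4, with a CV of 0.516 (0.616 after TMM). Replicates 2 and 3 were high, replicate 4 lower and replicate 1 lowest. *mRpL18*, whose bacterial counterpart binds 5S RNA, was at 31.8, 54.4, 22.8 and 18.4 CPM, with replicate 2 high. *mRpL3*, *mRpL39* (a protein related to threonyl-tRNA synthetase) and *mRpL50* had CVs between 0.488 and 0.494. By library total all 3 had their lowest value in replicate 3, at 9.14, 12.3 and 11.4 CPM, and their highest in replicate 4, at 37.6, 36.6 and 39.5 CPM. After TMM this held for *mRpL3* and *mRpL50*, whereas *mRpL39* was lowest in replicate 1 and highest in replicate 2.

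**Figure D3:**
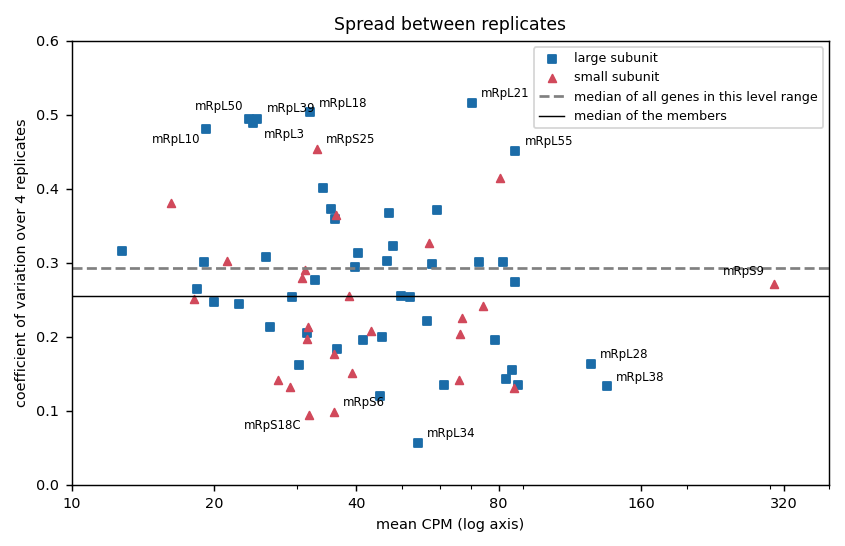
Coefficient of variation over 4 replicates against mean CPM (log axis), both by library total, for the 46 large-subunit and 25 small-subunit genes; the solid line is the median of the 71 genes, 0.255, and the dashed line the median of the 5071 genes in the same level range, 0.29. *mRpL21* is highest at 0.516, followed by *mRpL18* at 0.504, and *mRpL34* is lowest at 0.056. After TMM scaling, not plotted, *mRpL21* stays highest at 0.616 and *mRpL52* is lowest at 0.052.

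The biological coefficient of variation, an estimate of the spread beyond counting noise, was fitted with edgeR across the whole table. The fit draws each gene's estimate towards those of other genes, so it is not the gene's own spread. Its median was 0.341 over the 71 genes, with *mRpL41* lowest at 0.298 and *mRpL21* highest at 0.475. The CVs of these genes after TMM, 0.084 and 0.616, lay further apart. The median fitted value was 0.376 over all 7754 genes fitted and 0.350 over the genes in the same level range. Of the 71 genes, 42 were below that last value. The highest replicate was at most 2 times the lowest in 46 of the 71 genes, against 52.8% of the genes in the level range. After TMM scaling it was 44 of 71, against 55.4%. A single replicate far from the others, by Dixon's limit for 4 values, was found in 1 of the 71 genes (*mRpL55*), against 5.15%. After TMM it was found in 4 others (*mRpL27*, *mRpL36*, *mRpL40*, *mRpS29*), against 6.19%. Leaving out each replicate in turn gave medians from 0.308, without replicate 3, to 0.363, without replicate 4, and without replicate 1 the median was 0.356. Any 2 replicates differed by far more than sampling noise over these genes, with a chi-square of 21.2 to 51.0 per degree of freedom over the 6 pairs. Across the 71 genes, which are not independent replicates, Spearman's rho between libraries was 0.688 to 0.831.

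The replicate in which a gene was highest was not shared by all. By library total, 16, 23, 18 and 14 of the 71 genes were highest in replicates 1 to 4, and in the level range the background was 34.9%, 17.2%, 19.3% and 28.6% of genes. The number lowest was 10, 12, 29 and 20, against a background of 13.6%, 24.8%, 44.7% and 16.9%. After TMM scaling 26 and 27 genes were highest in replicates 2 and 3, 8 in replicate 1 and 10 in replicate 4. The background after TMM was 22.0%, 34.3%, 20.4% and 23.3% in this order of replicates. After TMM, 52 and 40 of the 71 genes lay above their own mean in replicates 2 and 3. In replicates 1 and 4 it was 17 and 19. Of the 46 large-subunit genes it was 34 and 24 in replicates 2 and 3, and 14 and 16 in replicates 1 and 4. Of the 25 small-subunit genes it was 18 and 16 in replicates 2 and 3, and 3 each in replicates 1 and 4. Of the 5071 genes in the level range, 49.0% and 50.6% lay above their own mean in replicates 2 and 3, and 42.0% and 46.6% in replicates 1 and 4.

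Genes of low level were lowest in replicate 3, the library with the fewest counts, more often than genes of high level, in the whole table too. Among the 24 lowest of the 71 genes, 13 were lowest in replicate 3, against 48.7% of the 2188 genes of the same levels. Among the 24 highest it was 7, against 40.6% of 1801 genes. After TMM it was 11 of the 24 lowest, against 36.6%, and 3 of the 24 highest, against 24.7%. *mRpL10*, with 6.74 CPM in replicate 3 and 18.7 to 28.5 CPM in the others, is an example of the low genes. *mRpS14*, with 123 CPM in replicate 3 and 45.3 to 88.2 CPM in the others, is one of the high genes. The part of the library size in this was not tested.

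The mitochondrial ribosomal proteins were set against the ribosomal proteins of the cytosol, the list most alike in function. The 71 mitochondrial genes summed to 3602 ± 265 CPM and the 85 cytosolic genes to 212364 ± 18065 CPM (SD, n = 4). The cytosolic sum was 53.8, 54.2, 64.1 and 64.4 times the mitochondrial one in replicates 1 to 4. On the log2 scale the mitochondrial sum was lower by a mean difference of -5.88 ± 0.14 in 4 of 4 replicates (exact permutation test over sign changes, two-sided, p = 0.13, adjusted over 2 comparisons 0.13). This is the smallest p that 4 replicates allow, so the test cannot pass 0.05 here. The median cytosolic gene was 53.3 ± 5.82 times the median mitochondrial one. Only 7 of the 85 cytosolic genes were below *mRpS9*, among them nearly silent gene copies.

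The second comparison was with the 84 nuclear genes of oxidative phosphorylation, whose protein products join the few subunits made on the mitoribosome. The mitochondrial ribosomal proteins, at 3602 ± 265 CPM, stood against 54718 ± 4466 CPM for these genes (SD, n = 4). The oxidative phosphorylation sum was 17.4, 14.0, 14.1 and 15.4 times the mitochondrial ribosomal one in replicates 1 to 4. The mean log2 difference was -3.92 ± 0.15, lower for the mitochondrial ribosomal proteins in 4 of 4 replicates (exact permutation test, two-sided, p = 0.13, adjusted 0.13). The oxidative phosphorylation list was far less even, with an 11.65-fold distance between its quartiles, since 21 of its 84 genes lay below the median mitochondrial ribosomal protein gene. The quartiles of the cytosolic ribosomal protein genes differed 2.22-fold, close to the 2.08-fold of the mitochondrial ones. Within 2 times of the list's own median were 76.1% of the mitochondrial, 65.9% of the cytosolic ribosomal protein and 41.7% of the oxidative phosphorylation genes, which is a description and was not tested.

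**Figure D4:**
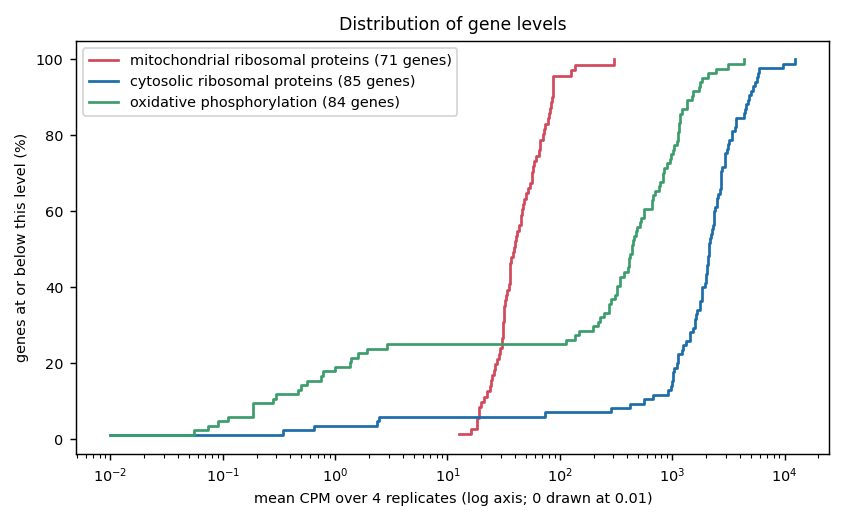
Share of genes (%) at or below a mean level in CPM (log axis, mean of 4 replicates) for the 71 mitochondrial ribosomal protein genes, the 85 cytosolic ribosomal protein genes and the 84 oxidative phosphorylation genes. The mitochondrial curve rises steeply around its median of 39.2 CPM, and both other lists have a tail of nearly silent genes and most of their members above 100 CPM.

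The related genes without the prefix were in the same range as the 71. *tko* was measured at 65.1, 73.3, 49.8 and 61.2 CPM in replicates 1 to 4 and *bonsai* at 50.0, 48.6, 58.3 and 42.0 CPM. Both lay above the median of the 71 genes and below *mRpL38* in each replicate. The 15 measured genes of mitochondrial translation and transcription factors were mostly lower, with a median of 12.9 CPM. *mEFTu1*, an elongation factor that brings transfer RNA to the ribosome, was highest at 163 ± 43.1 CPM, above 70 of the 71 ribosomal genes by mean. In all, 4 of the 15 were above the median of the 71, and 11 were not. Next came *bsf*, an RNA-binding protein of mitochondria, at 71.1 CPM. The partner of *mEFTu1*, *mEFTs*, was at 50.4 CPM and the paralog *mEFTu2* at 43.8 CPM. *mIF3*, an initiation factor, was lowest at 2.67 CPM, with 2 counts in replicate 3. *TFAM*, which packages mitochondrial DNA, was at 36.5 CPM and *PolrMT*, the mitochondrial RNA polymerase, at 7.94 CPM.

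The genes of the list also shared features of position that the symbol rule did not use. The 71 genes lie on chromosome arms X (11), 2L (12), 2R (11), 3L (16) and 3R (21), which hold 15.8%, 19.1%, 20.2%, 19.7% and 24.4% of the annotated protein-coding genes of the table. None lies on chromosome 4, which holds 0.585%. They are short, with a median transcript of 774 nt against 1693 nt over the annotated protein-coding genes of the table, and 69 of 71 have transcripts of at most 1500 nt, against 43.5%. In 51 of the 71 (71.8%) a gene on the opposite strand starts within 500 bp of the start, head to head, against 25.2% of all annotated protein-coding genes of the table and 32.2% of those in the same level range. Within 100 bp it was 17 of 71 (23.9%), against 5.52%. Genes that neighbour each other in this way are not independent, so these shares are a description with no test.

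The head-to-head neighbours were mostly lower than the ribosomal genes. Of the 51, the mitochondrial ribosomal protein gene was higher in 38, with a median of 38.5 CPM, against 12.2 CPM for the neighbours. Most genes of the table were likewise lower than the median member, at place 2952 of 13608. The count of 38 is therefore not a trait of head-to-head neighbours. The distance between both starts was 95 bp for *mRpL55* and *ATPsynD*, a subunit of ATP synthase at 1760 CPM, and 395 bp for *mRpL33* and *norpA*, the phospholipase C of phototransduction at 2403 CPM. *mRpL35* starts 192 bp from *Mitofilin*, which organizes the cristae of the inner membrane and was at 56.8 CPM. *mRpL18* starts 20 bp from *Taz*, which remodels the mitochondrial lipid cardiolipin and was at 32.7 CPM. The 51 genes with such a neighbour had a median of 38.5 CPM and the 20 without one 39.5 CPM, a difference far smaller than the spread among genes.

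At the other end, 41 of the 71 genes (57.7%) have their annotated 3′ end inside another protein-coding gene, against 32.9% of the annotated genes of the table. Overlap with a gene on the opposite strand was found in 41 genes as well, against 33.7%, and overlap on the same strand in 2 (*mRpS14* and *mRpL13*), against 9.01%. Of the 71, 9 are single-exon genes, against 16.4%. The overlap at the 3′ end may bear on the values. Reads start at the 3′ end, and the sources used here do not give whether the counting used strand. Without strand, reads of such a pair cannot be told apart. The median of the 41 genes was 36.0 CPM and that of the 30 others 41.7 CPM, with median CVs of 0.244 and 0.275. The same direction was seen over the 7691 annotated protein-coding genes that passed the count minimum. Their median was 22.1 CPM with a gene at the 3′ end and 27.6 CPM without one. In 32 of the 41 pairs the ribosomal gene was the higher one. Here too, most genes of the table were lower than the median member, at place 2952 of 13608. *mRpS9* ends inside *ArgRS-m*, which was at 2.76 CPM. In the other direction, *mRpL18* (31.8 CPM) shares its end with *ox*, a respiratory chain subunit at 1025 CPM, *mRpS16* (66.1 CPM) with *ReepB* at 372 CPM, *mRpL23* (57.9 CPM) with *CG8993* at 200 CPM, *mRpL35* (12.8 CPM) with *CG6028* at 179 CPM and *mRpL16* (22.6 CPM) with *arm* at 178 CPM. In these 5 pairs the neighbour was over 3 times higher, and the part of such a split in the values was not tested.

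**Figure D5:**
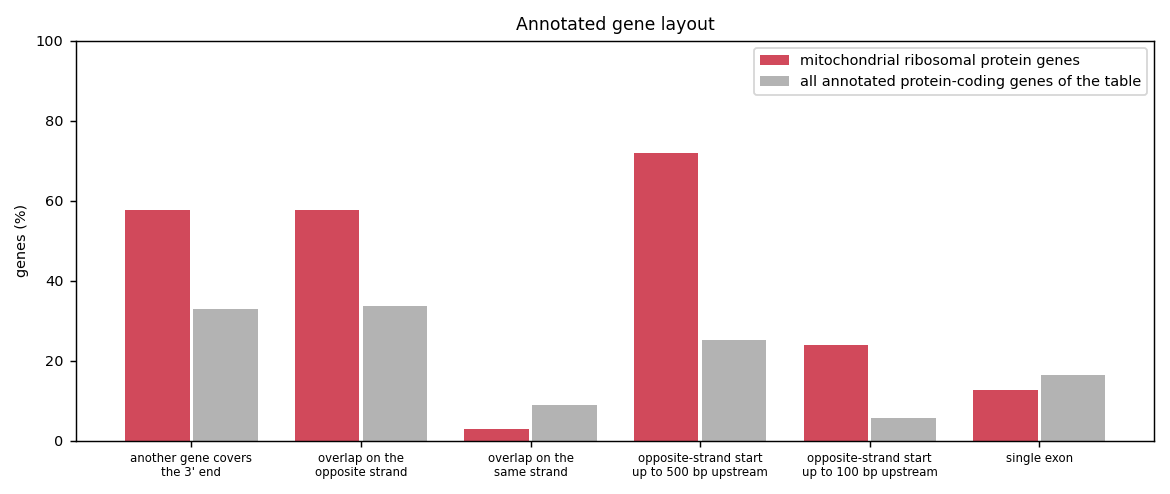
Percentage of the 71 mitochondrial ribosomal protein genes (red, left bar) and of the 13503 annotated protein-coding genes of the table (grey, right bar) with each layout in the annotation. The red bar is higher for a gene over the 3′ end (57.7% against 32.9%) and for an opposite-strand start within 500 bp (71.8% against 25.2%), and lower for overlap on the same strand and for single-exon genes.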

How the data were processed

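Heads of adult wild-type flies were profiled by QuantSeq REV 3′-seq from 10 ng total RNA in 4 replicates. Per the study's methods and the submitters' notes, reads were trimmed of poly(A) with fastp, mapped to dm6 with STAR 2.6.1b without introns, and counted per gene with featureCounts. The authors deposited the raw count of each gene, not normalized, with replicates apart. The annotation, strand setting and treatment of reads with several positions are not given in the sources used here for these counts, so paralogs and overlapping genes are uncertain.

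Of 13608 identifiers, 13512 were given a symbol and 96 were not. CPM were formed from each library's total, with 95% Wilson intervals. Whether replicates came from separate flies is not stated beyond the labels, so the spread may be technical in part. The spread between replicates was fitted with edgeR 4.0.16 (R 4.3.3, TMM, intercept only, at least 10 counts in every replicate) after a test on simulated data. TMM and size factors of DESeq2 1.42.0 served as alternative scalings, and each replicate was left out in turn. Gene positions came from Ensembl release 115 on dm6. A neighbour counts as head to head when an opposite-strand start lies from 100 bp inside the gene to 500 bp upstream. Sums of gene lists were compared within libraries by exact permutation of signs. Python 3.11.15, pandas 2.3.3 and scipy 1.17.1 were used.

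The members, lists, classes and alternatives were chosen with earlier results of these data known. Genes named were the 10 highest and 5 lowest, the 5 with the largest and the 5 with the smallest CV at a mean of at least 10 CPM, any with 0 counts or a far replicate (Dixon's limit), and the S18 family. Other members named by role, and the neighbouring genes, were chosen after their values were seen. Classes follow bacterial and human mitoribosome nomenclature.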

Additional observations from a re-analysis of the deposited data

Results flagged for a closer look

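*mRpL55*, the large-subunit counterpart of bacterial L31 (chromosome 3R, 19094394 to 19094905, minus strand), had 1 replicate far from the others. It was measured at 145 CPM in replicate 2 and at 61.1, 70.3 and 70.5 CPM in replicates 1, 3 and 4, so that the gap to the nearest replicate was 0.888 of the whole range, above Dixon's limit for 4 samples. After TMM scaling the gap was 0.707 of the range, below the limit. Chance alone puts about 5% of such values past the limit, or 4.05 of the 81 values tested, and 1 was found. Among the genes in the same level range the share was 5.15%. Its head-to-head neighbour *ATPsynD* was not high in replicate 2, at 1501 CPM, against 2046, 1855 and 1640 CPM in replicates 1, 3 and 4.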

How the results depend on the processing

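Of 69 alternatives to the results on sums, medians, ratios, detection and spread, 3 moved a value by more than the spread between replicates. Of the 69, 44 left out 1 replicate. A mean over 4 replicates cannot move by more than its SD in this way, and a full detection cannot fall. For sums, medians, ratios and detection, leaving out a replicate could therefore not have counted as a move. None of the 69 turned a direction. The mean per large-subunit gene over that per small-subunit gene, not among these alternatives, did turn, from 0.931 to 1.15 without *mRpS9*. Leaving out the highest gene of each subunit, *mRpL38* and *mRpS9*, moved the ratio of the large-subunit to the small-subunit sum to 2.08 ± 0.111, against 1.71 ± 0.142 with all genes. Counting all 3 S18 genes as conserved, an alternative added after seeing the data, moved the median of the mitochondria-specific genes to 36.9 CPM, against 35.0 CPM. This exceeded the SD by library total, 0.730 CPM, whereas the SD of that median after TMM was 5.28 CPM. The median biological coefficient of variation was 0.308 to 0.363 when 1 replicate was left out, lowest without replicate 3. For the 25 named genes, all 50 means under TMM or DESeq2 scaling moved by less than their SD, and none of 100 means with a replicate left out moved by over 1.5 times. No paired analysis was possible because the 4 replicates form 1 group. With 4 replicates the smallest two-sided p is 0.13. The lowest gene, *mRpL35*, rests on 64 to 227 counts per library, and the order of genes of like level is not resolved. Counts from overlapping 3′ ends may be shared between genes.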
